A study of Mus musculus with 6 samples.

Results

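Interferon-stimulated genes were followed in sorted blood stem and progenitor cells of tamoxifen-treated mice. These were labelled as heterozygous or homozygous for a conditional allele of the histone H3K4 methyltransferase gene Setd1b. The genes were chosen by name as a module of 39 interferon-induced, mostly antiviral genes, of 45706 genes in the count table. All 39 were found by symbol, all 39 passed the filter on low counts that left 15184 genes to test, and none was left out below. The libraries labelled Setd1b cKO had slightly more transcript of most of these genes. By edgeR's quasi-likelihood test (Benjamini-Hochberg adjusted p under 0.05), 12 rose, as 3.88% of all genes tested did, 1 fell, as 3.79% did, and 26 did not pass. Of the 39 log2 fold changes, 34 were above 0. The changes were small, with folds of 1.26 to 1.47 for the genes that rose.

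RNA came from LSK cells (Lin- Sca-1+ c-Kit+), the bone marrow gate that holds stem cells and multipotent progenitors. All 6 mice were C57BL/6 males of 16 weeks, except cKO mouse AH74 with 17 weeks, and each gave 1 library from a sort of LSK cells. The 3 Ctrl mice (AI03, AI54 and AI56) were labelled Setd1b HET (FD/+; RC/+) and the 3 cKO mice (AI02, AI55 and AH74) Setd1b HOM (FD/FD; RC/+), where FD is the conditional Setd1b allele and RC a tamoxifen-inducible Cre in the Rosa26 locus. Both groups carried 1 copy of RC, both received 4.5 mg tamoxifen a day by gavage, and both were killed 3 days after the last dose. Per the study's methods the groups were littermates, but the sources used here do not say which mice shared a litter. The controls are thus set to lose 1 copy of Setd1b too, no group lacked tamoxifen or Cre, and this Cre acts in almost all tissues and not in blood cells alone. In RNA of whole sorted populations, more cells of a type and more RNA per cell cannot be told apart.

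Type I and type II interferons bind receptors on the cell surface, and Janus kinases there phosphorylate STAT proteins. A complex that contains STAT2 and IRF9 then binds the interferon-stimulated response element (ISRE) in front of antiviral genes, and STAT dimers bind the gamma-activated site (GAS). Hematopoietic stem cells constantly express many of these genes, and interferon can drive these cells from rest into division.

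Promoter sequence from RefSeq (build GRCm38.p6) was matched by symbol to 29 of the 39 genes, from 250 bases before to 50 bases after each start. An ISRE core was searched as GAAANNGAAA on both strands, so as TTTCNNTTTC on the other, and was found in 14 of the 29 genes, which is 48.3%, against 3.99% of all 27025 genes with a promoter. The GAS pattern TTCNNNGAA, which reads the same on both strands, was found in 10 of the 29 (34.5%), against 9.55% of all genes. A match is a description of the letters in this window and not a bound site. The 170 bases before the start are shown for 6 genes, because they set the strongest rises among the oligoadenylate synthetases and guanylate-binding proteins beside the 2 genes with the lowest fold changes (Gbp3 and Ifit3) and beside Ifit1, a classical target. The sequences run 5′ to 3′ on the strand of the gene, end with the base before the start, and have the ISRE cores in capitals.
Oas3: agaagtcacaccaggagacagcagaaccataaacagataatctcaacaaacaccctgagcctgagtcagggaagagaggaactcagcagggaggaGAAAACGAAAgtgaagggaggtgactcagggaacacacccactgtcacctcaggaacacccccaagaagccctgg
Gbp2: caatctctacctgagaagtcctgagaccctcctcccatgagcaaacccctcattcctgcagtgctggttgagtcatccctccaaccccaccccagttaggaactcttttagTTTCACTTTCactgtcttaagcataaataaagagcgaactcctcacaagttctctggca
Gbp7: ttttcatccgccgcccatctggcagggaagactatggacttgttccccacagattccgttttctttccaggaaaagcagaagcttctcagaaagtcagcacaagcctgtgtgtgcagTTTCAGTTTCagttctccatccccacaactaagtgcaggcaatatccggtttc
Gbp3: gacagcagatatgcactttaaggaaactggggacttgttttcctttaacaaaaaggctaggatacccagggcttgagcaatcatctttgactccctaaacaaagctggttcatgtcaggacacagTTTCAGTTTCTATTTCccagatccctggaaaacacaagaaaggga
Ifit1: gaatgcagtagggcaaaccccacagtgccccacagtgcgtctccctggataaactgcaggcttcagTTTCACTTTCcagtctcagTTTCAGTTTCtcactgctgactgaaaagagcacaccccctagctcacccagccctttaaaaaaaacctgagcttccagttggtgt
Ifit3: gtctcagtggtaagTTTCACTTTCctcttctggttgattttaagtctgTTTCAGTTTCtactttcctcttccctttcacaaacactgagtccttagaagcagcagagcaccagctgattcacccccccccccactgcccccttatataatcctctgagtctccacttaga

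These stretches lie at chr5:120777660-120777829 (Oas3, minus strand), chr3:142620493-142620662 (Gbp2), chr3:142530166-142530335 (Gbp7), chr3:142559874-142560043 (Gbp3), chr19:34640719-34640888 (Ifit1) and chr19:34583359-34583528 (Ifit3). The core began 75 bases before the start in Oas3, 59 in Gbp2 and 53 in Gbp7. Gbp3 had a pair of overlapping cores at 45 and 39 bases, Ifit1 had cores at 104 and 85 bases, and Ifit3 at 156 and 122 bases. Genes that rose and genes with a lower value thus both carried the core close to the start. Of the 9 genes that rose and had a promoter sequence, 6 held a core, and of the 19 that did not pass the test, 7 did. The 21 cores of the 14 genes lay between 222 bases before and 32 bases after the start, 16 of them before it.

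The libraries held 13003573 to 21277519 counts, and the 39 genes between 136 and 6654 counts each in a library. Over all genes tested, 1164 passed the threshold (7.67%), 589 higher and 575 lower, with a median log2 fold change of 0.0002. Setd1b itself (chr5:123142193-123168629) had 221, 194 and 223 CPM (counts scaled to library size) in the Ctrl and 272, 288 and 314 CPM in the cKO mice (log2 fold change 0.46, SE 0.07, adjusted p = 0.0015). That is against the label, but only exon 5 is removed and the counts are per gene, so the total is no check of the deletion. The study reported complete recombination by PCR in sorted stem and progenitor cells of such mice, at a later time after induction. By PCR with a primer in exon 5 it also found Setd1b mRNA lost in sorted multipotent progenitors of cKO mice, again at a later time. Groups are named below as they were labelled. By their numbers in the table header, the libraries fell into 2 runs, here library series 1 (AI03, AI02, AI55) and library series 2 (AI54, AI56, AH74). What these runs stand for is not stated in the sources used here. Kit and Ly6a (Sca-1), which define the gate, summed to 452 to 555 CPM in Ctrl and 456 to 501 CPM in cKO mice.

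Across the 39 genes, Ctrl mouse AI56 and cKO mouse AI55 stood at the ends. AI56 had the lowest value of all 6 mice in 29 genes and AI55 the highest in 28. Set against the mean of the 6 mice, the median deviation of the 39 genes on the log2 scale was -0.05 in AI03, -0.06 in AI54 and -0.25 in AI56 among the Ctrl mice, and 0.16 in AI02, 0.26 in AI55 and 0.02 in AH74 among the cKO mice. AH74 was the lowest of the cKO mice in 27 genes and lay nearer to the Ctrl mice AI03 and AI54 than the other cKO mice did. The summed level of the 39 genes did not overlap between the groups, with 3882, 3930 and 3424 CPM in the Ctrl and 4485, 4773 and 4164 CPM in the cKO mice. Since AI56 and AI55 widened the gap, the test was repeated without each: 5 genes were higher and 2 lower without AI56, and 4 were higher and 1 lower without AI55. Genes called both without AI56 and without AI55 were Oas3, Ddx58, Gbp2 and Irf7 (higher) and Gbp3 (lower), and these 5 were called in each of the 13 other settings tried. How the level of AI56 and AI55 came about was not tested.

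**Figure D1:**
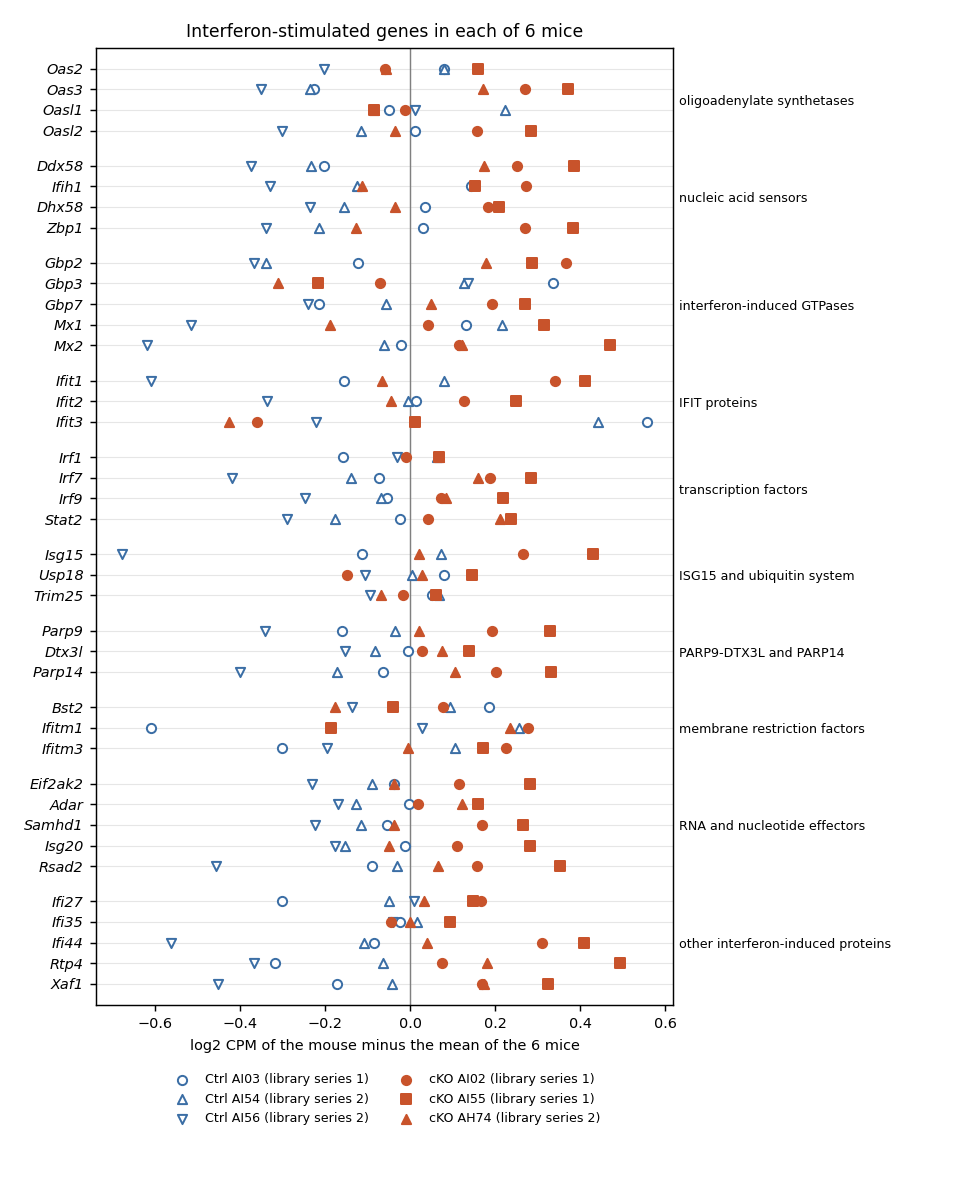
Level of each of the 39 interferon-stimulated genes in each mouse, as log2 CPM minus the mean of the 6 mice (horizontal axis), grouped by role (right); open symbols are Ctrl and filled symbols cKO mice, 1 symbol shape per mouse. AI56 is the leftmost symbol in 29 genes and AI55 the rightmost in 28, and Gbp3 and Ifit3 run the other way from most genes.

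The median log2 fold change of the 39 genes was 0.25, beside 0.0002 over all genes, and the values ran from -0.54 to 0.55. No gene changed by more than 2-fold. The 3 Ctrl and 3 cKO mice did not overlap in 20 genes, with 19 higher in cKO (14.0% of all genes tested do so) and 1 lower (13.4% do so). An unadjusted p under 0.05 was reached by 28 of the 39 and by 22.9% of all genes.

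**Figure D2:**
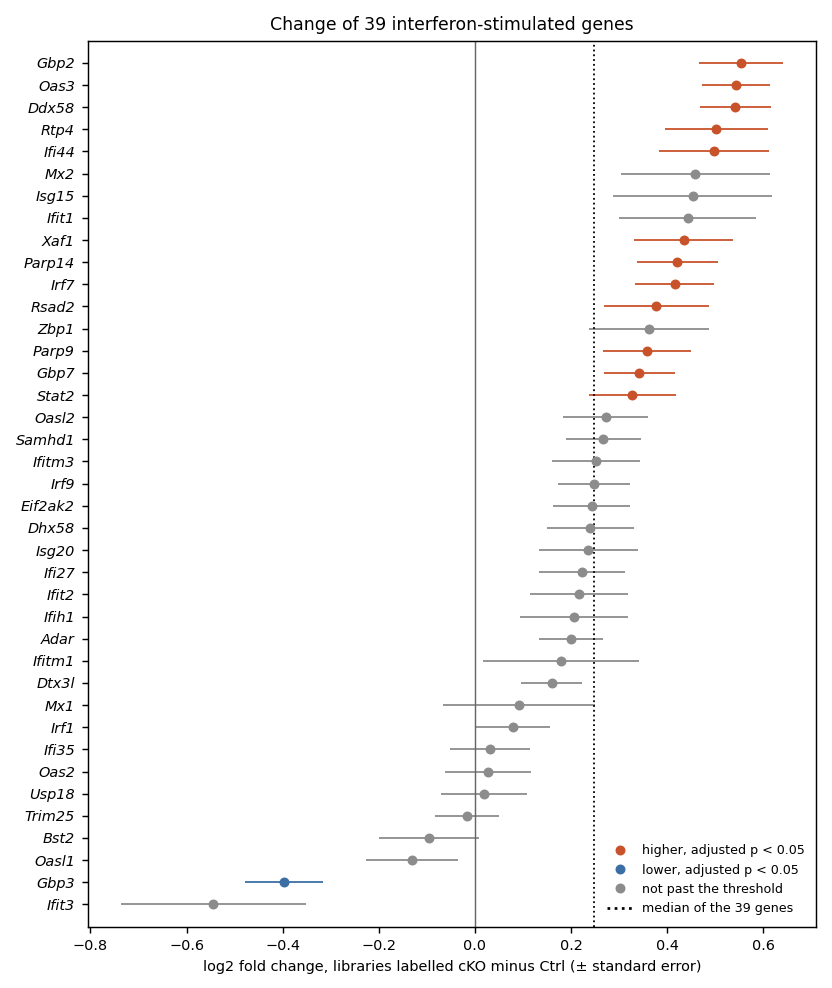
Log2 fold change of each of the 39 genes, libraries labelled cKO minus Ctrl, with its standard error (bars), ordered by size; orange genes rose, the blue gene fell and grey genes did not pass the test. The dotted line is the median of the 39 genes, 0.25, and all 12 genes that rose lie to the right of it.

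In what follows CPM values are given in the order AI03, AI54 and AI56 for Ctrl and AI02, AI55 and AH74 for cKO. The log2 fold change, for genes given without CPM just called the value, is the fitted difference of cKO minus Ctrl. Levels are compared between genes only as TPM, which are scaled to transcript length as well as to library size.

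Of the 4 genes of the oligoadenylate synthetase family, whose active members make the second messenger that switches on RNase L, 1 rose. Oas3 had 115, 114 and 106 CPM in Ctrl and 162, 174 and 152 CPM in cKO mice, and the groups were well apart (log2 fold change 0.54, SE 0.07, adjusted p = 0.00024). Oasl2, the synthetase-like gene with the highest level of the 4 (mean 32.8 TPM), had 165, 151 and 133 CPM in Ctrl and 183, 199.7 and 159.7 CPM in cKO mice. The cKO mouse AH74 lay between the Ctrl mice there, and the gene did not pass the test (log2 fold change 0.27, SE 0.09, adjusted p = 0.079). Oas2 lies next to Oas3 on chromosome 5 and had a log2 fold change of 0.03, and Oasl1 one of -0.13. The neighbours Oas2 and Oas3 therefore had different values, 0.03 and 0.54, although the difference between genes was not tested.

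Of the 4 genes for cytosolic nucleic acid sensors, 1 rose. Ddx58, which encodes the RNA sensor RIG-I, had 106, 104 and 94.1 CPM in Ctrl and 145, 159 and 138 CPM in cKO mice. All 3 cKO mice were above all 3 Ctrl mice (log2 fold change 0.54, SE 0.07, adjusted p = 0.00038). Dhx58, the gene of the regulator LGP2 and at 25.0 TPM the highest of the 4 by a small margin, had 65.9, 57.7 and 54.6 CPM in Ctrl and 73.0, 74.4 and 62.7 CPM in cKO mice. Here AI03 lay above AH74, and the gene did not pass the test (log2 fold change 0.24, SE 0.09, adjusted p = 0.13). Zbp1, a sensor of Z-form nucleic acid, had a value of 0.36 (adjusted p = 0.094), and Ifih1, which encodes MDA5, one of 0.21 (adjusted p = 0.30). In both, the lowest cKO mouse was AH74, and it lay within the Ctrl values.

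The interferon-induced GTPases split. Gbp2 and Gbp7 rose, Gbp3 fell, and Mx1 and Mx2 did not pass the test. The 3 guanylate-binding protein genes, whose products coat pathogen vacuoles, lie on chromosome 3 in the order Gbp7 (chr3:142530342-142550149), Gbp3 (chr3:142560026-142573209) and Gbp2 (chr3:142620602-142638008), so that the one that fell lies between the pair that rose. Gbp2 had 54.2, 46.6 and 45.7 CPM in Ctrl and 76.1, 71.9 and 66.7 CPM in cKO mice, the highest fitted value of the 39 genes (log2 fold change 0.55, SE 0.09, adjusted p = 0.0012). Gbp7, with a mean of 37.6 TPM the highest of the 5 GTPases, had 143, 159 and 140.1 CPM in Ctrl and 189, 199.7 and 171 CPM in cKO mice (log2 fold change 0.34, SE 0.07, adjusted p = 0.0098). Both sets of values were apart, by a wide margin in Gbp2 and a narrow one in Gbp7. Gbp3 had 118, 102 and 103 CPM in Ctrl and 89.3, 80.7 and 75.6 CPM in cKO mice, with every cKO mouse below every Ctrl mouse (log2 fold change -0.40, SE 0.08, adjusted p = 0.0071). Mx2, a gene of the dynamin-like Mx family, had a log2 fold change of 0.46 with an SE of 0.16 (adjusted p = 0.089), and Mx1 one of 0.09 (adjusted p = 0.79). C57BL/6 mice carry a defective Mx1 gene.

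By edgeR's quasi-likelihood test 0 of the 3 IFIT genes, a family of RNA-binding proteins, passed the threshold, 2 had an unadjusted p under 0.05, and DESeq2 called 0. Ifit1, with 40.8 TPM the highest of them, had 74.2, 87.3 and 54.2 CPM in Ctrl and 105, 110.0 and 79.0 CPM in cKO mice. Ctrl mouse AI54 lay above cKO mouse AH74, and the spread within groups was wide (log2 fold change 0.44, SE 0.14, adjusted p = 0.074). Ifit3 had 19.0, 17.5 and 11.0 CPM in Ctrl and 9.98, 12.96 and 9.54 CPM in cKO mice, the lowest fitted value of the 39 genes, but AI56 lay among the cKO mice (log2 fold change -0.54, SE 0.19, adjusted p = 0.10). Ifit2 had a value of 0.22 (adjusted p = 0.22). Ifit3 has a close copy, Ifit3b, and Ifit1 has related copies, and reads shared by copies were not counted, so their values are less certain.

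Of the 4 transcription factor genes, 2 rose. Irf7, the factor that amplifies type I interferon production and the most abundant of the 4 (mean 60.7 TPM), had 136, 129.8 and 107 CPM in Ctrl and 163, 174 and 159.6 CPM in cKO mice, and the groups did not overlap (log2 fold change 0.42, SE 0.08, adjusted p = 0.0058). Stat2, a subunit of the complex that binds the ISRE, had 50.5, 45.5 and 42.0 CPM in Ctrl and 52.9, 60.6 and 59.5 CPM in cKO mice (log2 fold change 0.33, SE 0.09, adjusted p = 0.040). The gap between the groups was narrow, with 50.5 CPM in AI03 and 52.9 CPM in AI02, and the call was made in 7 of 13 other settings. Irf9, the DNA-binding subunit of the same complex, had 93.7, 92.8 and 82.0 CPM in Ctrl and 102, 113 and 103 CPM in cKO mice, which do not overlap either, but just missed the threshold (log2 fold change 0.25, SE 0.07, adjusted p = 0.057). Irf9 overlaps Rnf31 on the same strand by 123 bases, where reads of the genes cannot be told apart. Irf1 had a value of 0.08 (adjusted p = 0.60).

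In the ISG15 and ubiquitin system, edgeR called 0 of 3 genes, 1 had an unadjusted p under 0.05, and DESeq2 called 0. Trim25, the ubiquitin ligase that acts on RIG-I and the highest of the 3 (mean 44.2 TPM), had 209, 212 and 189 CPM in Ctrl and 199, 211 and 193 CPM in cKO mice, which overlapped (log2 fold change -0.02, SE 0.07, adjusted p = 0.91). Usp18, the protease that removes ISG15 and damps receptor signalling, had a value of 0.02 (adjusted p = 0.93). Isg15, the ubiquitin-like modifier, had one of 0.45, with an SE of 0.17 (adjusted p = 0.12).

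Of the genes for the ADP-ribosyltransferases and their partner, 2 of 3 rose. Parp14 had 252, 234 and 199 CPM in Ctrl and 303, 331 and 283 CPM in cKO mice (log2 fold change 0.42, SE 0.08, adjusted p = 0.0056). Parp9 had 86.6, 94.6 and 76.4 CPM in Ctrl and 111, 122 and 98.2 CPM in cKO mice (log2 fold change 0.36, SE 0.09, adjusted p = 0.025), with a narrow gap between 94.6 CPM in AI54 and 98.2 CPM in AH74. Parp9 was called in 9 of 13 other settings and Parp14 in 12. Dtx3l, the ubiquitin ligase that pairs with PARP9 and the highest of the 3 (mean 61.9 TPM), had 280.2, 266 and 253 CPM in Ctrl and 286, 309 and 296 CPM in cKO mice, again without overlap, but the difference was small (log2 fold change 0.16, SE 0.06, adjusted p = 0.14). Parp9 and Dtx3l overlap by 682 bases on opposite strands, and counting used strand.

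Among the 3 membrane restriction factors edgeR called 0, 1 had an unadjusted p under 0.05, and DESeq2 called 0. Ifitm3, which blocks the entry of enveloped viruses, had by far the highest level of the 39 genes (mean 554 TPM) and 239.5, 317 and 258 CPM in Ctrl and 345, 332 and 294 CPM in cKO mice. Ctrl mouse AI54 lay above cKO mouse AH74 (log2 fold change 0.25, SE 0.09, adjusted p = 0.11). Ifitm1 had a log2 fold change of 0.18, with 52.4 CPM in AI03 below the other mice (adjusted p = 0.57). Bst2, which encodes tetherin, had one of -0.10 (adjusted p = 0.64).

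Among the 5 genes for effectors on RNA and nucleotides, 1 rose. Rsad2, which encodes viperin, had 53.0, 55.2 and 41.1 CPM in Ctrl and 62.9, 72.1 and 59.1 CPM in cKO mice (log2 fold change 0.38, SE 0.11, adjusted p = 0.0472). The groups were close, AI54 at 55.2 and AH74 at 59.1 CPM, and the call was made in 6 of 13 other settings. Eif2ak2, the gene of the kinase PKR and the highest of the 5 (mean 57.5 TPM), had 225, 217 and 197 CPM in Ctrl and 250.5, 281 and 225 CPM in cKO mice, where AI03 and AH74 nearly touched (log2 fold change 0.24, SE 0.08, adjusted p = 0.081). Samhd1, a nucleotide hydrolase, lay just outside the threshold with a log2 fold change of 0.27 (adjusted p = 0.0504). Adar, the RNA-editing enzyme, had a value of 0.20 (adjusted p = 0.086), and Isg20, an exonuclease, one of 0.24 (adjusted p = 0.19).

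Of the last 5 genes, Rtp4, Ifi44 and Xaf1 rose. Rtp4, at a mean of 61.8 TPM the highest of them, had 60.3, 72.0 and 58.3 CPM in Ctrl and 79.3, 106 and 85.4 CPM in cKO mice (log2 fold change 0.50, SE 0.11, adjusted p = 0.0086), with AI55 well above the other cKO mice. Ifi44 had 112, 110.5 and 80.6 CPM in Ctrl and 148, 158 and 122 CPM in cKO mice (log2 fold change 0.50, SE 0.11, adjusted p = 0.014). Here AI56 was far below the other Ctrl mice. Xaf1, a cofactor of apoptosis, had 40.2, 44.0 and 33.1 CPM in Ctrl and 50.9, 56.7 and 51.1 CPM in cKO mice (log2 fold change 0.43, SE 0.10, adjusted p = 0.018). Ifi27 had a value of 0.22 (adjusted p = 0.15), and Ifi35 one of 0.03 (adjusted p = 0.86). Of the 13 genes that changed, Gbp7, Ifi44, Parp9, Rsad2, Rtp4, Stat2 and Xaf1 lost their call without AI56, and the same genes and Parp14 lost it without AI55.

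**Figure D3:**
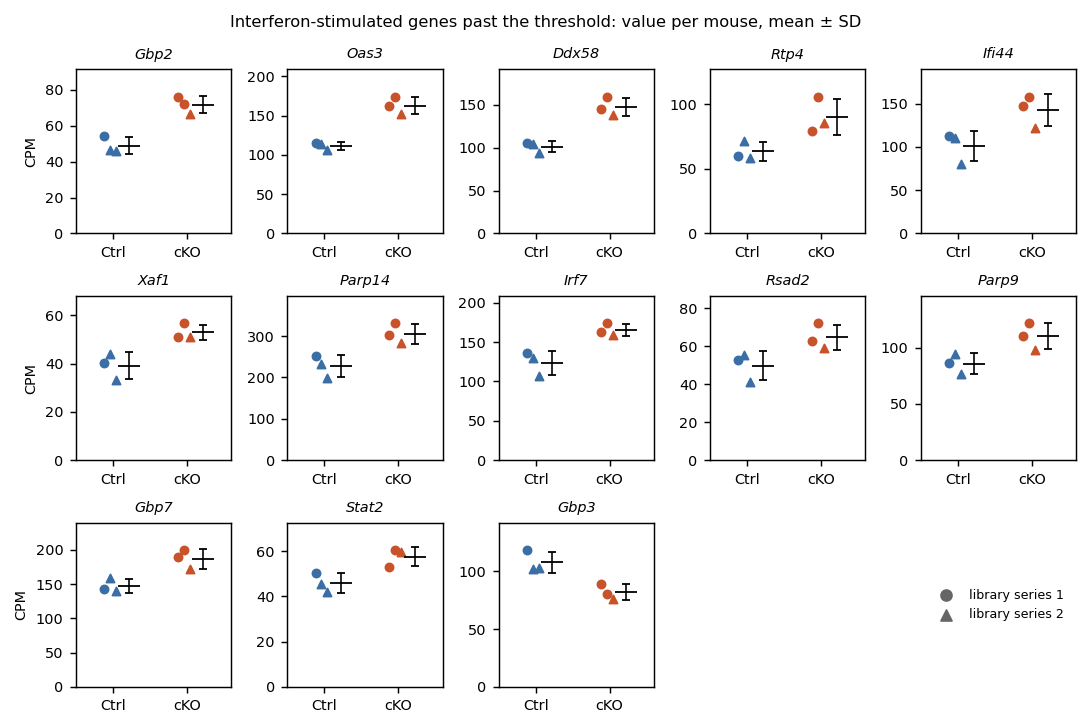
CPM in each mouse for the 13 genes that passed the test (vertical axes start at 0), with the mean and SD of each group beside the points; circles are library series 1 and triangles library series 2. The 12 genes that rose have all 3 cKO points above all 3 Ctrl points, and Gbp3 has them below.

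Both library series were then taken apart, with 1 Ctrl and 2 cKO mice in the first and 2 Ctrl and 1 cKO in the second, and no test within either. The median log2 difference of the 39 genes was 0.24 in series 1 and 0.16 in series 2, against -0.0009 and 0.0054 over all genes tested. The difference was above 0 in both series for 31 of the 39 genes. In all 13 genes that passed the test the groups did not overlap. Their direction in each series was fixed by this and is no separate evidence. Gbp2 differed by 0.45 and 0.53, Oas3 by 0.55 and 0.46, Ddx58 by 0.52 and 0.48, and Gbp3 by -0.48 and -0.44. The values of Ifitm3 were less alike, 0.50 in series 1 and 0.04 in series 2, and so were those of Ifitm1 (0.65 and 0.09) and Stat2 (0.16 and 0.44). An interaction of genotype and series passed the threshold in none of the 39 genes by edgeR's quasi-likelihood test (smallest adjusted p = 0.79, unadjusted p under 0.05 in 3 genes) and in 0.00659% of all genes. Each series held only 1 or 2 mice of a group, so the interaction test could find large differences only and does not show that the series agree. With the series as a covariate, Parp9, Rsad2 and Stat2 no longer passed, and Ifit3 did, as lower.

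**Figure D4:**
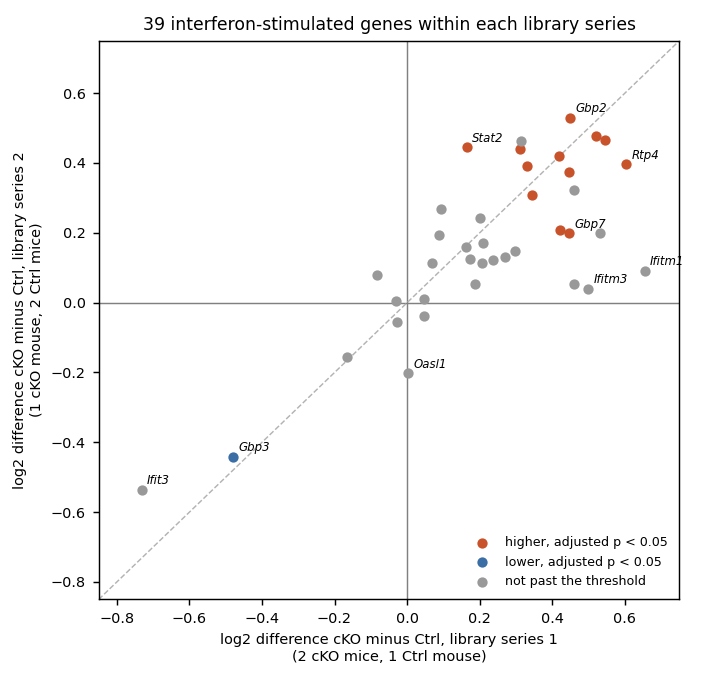
Log2 difference of cKO minus Ctrl within library series 1 (horizontal axis) and library series 2 (vertical axis) for the 39 genes; orange genes rose, the blue gene fell and grey genes did not pass the test over all 6 mice. Gbp3 and Ifit3 lie in the lower left, the genes that rose in the upper right, and the dashed line marks equal values.

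Longer transcripts were called higher more often, within these genes and over all genes, which is given as a description with no test. Of the 19 genes with more than 3927 exon bases, the median of the 39, 9 rose, and of the other 20, 3 did. Among all genes tested, 6.28% of those longer than this rose, and 2.17% of the rest. With the trend of each library against length removed, a setting chosen after the data had been seen, 12 of the 39 genes were still higher and Gbp3 lower, though Rsad2 and Stat2 were replaced by Ifitm3 and Isg15, and the median log2 fold change was 0.22.

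Upstream of these genes, the counts of the interferon genes themselves were at the floor. Of 7 interferon genes, Ifna2, Ifnl2 and Ifnl3 had 0 counts in every library, and Ifnb1, Ifna1, Ifna4 and Ifng had at most 2 counts in a single library. A count of 0 allows up to 0.141 CPM in the deepest and 0.231 CPM in the shallowest library, a limit for counting error only. Reads shared by near-identical genes were not counted, which may lower the counts of the Ifna genes and of Ifnl2 and Ifnl3. Of 38 pathway genes, 30 were tested, with a median log2 fold change of 0.05. Of these, 3 rose, as 3.88% of all genes tested did, and 3 fell, as 3.79% did. Among the receptors, the type II interferon receptor gene Ifngr1 had 101, 91.0 and 103 CPM in Ctrl and 75.4, 73.4 and 76.9 CPM in cKO mice and fell (log2 fold change -0.38, SE 0.07, adjusted p = 0.0042). Ifnar1 of the type I receptor had 75.8, 72.5 and 62.5 CPM in Ctrl and 84.5, 84.2 and 82.1 CPM in cKO mice, with no overlap but not past the threshold (log2 fold change 0.25, SE 0.08, adjusted p = 0.069), and its partner Ifnar2 had a value of -0.06 (adjusted p = 0.73).

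Stat3, a STAT that also serves other cytokines, had 164, 178 and 176 CPM in Ctrl and 233, 229 and 238 CPM in cKO mice (log2 fold change 0.44, SE 0.06, adjusted p = 0.00055) and rose, with every cKO mouse far above every Ctrl mouse. Irf8, a factor of monocyte and dendritic cell development, had 112, 102 and 90.4 CPM in Ctrl and 67.1, 63.6 and 46.8 CPM in cKO mice and fell (log2 fold change -0.78, SE 0.11, adjusted p = 0.00076). Tlr7, an endosomal sensor of single-stranded RNA, had 16.7, 16.6 and 8.77 CPM in Ctrl and 5.36, 6.29 and 3.72 CPM in cKO mice and fell as well (log2 fold change -1.45, SE 0.25, adjusted p = 0.0022). In both, all 3 cKO mice were below all 3 Ctrl mice. Myd88, the adaptor below it, rose, with a log2 fold change of 0.45 (adjusted p = 0.028). Socs3, an inhibitor of cytokine receptors that STAT3 induces, had 4.06, 15.0 and 12.5 CPM in Ctrl and 21.3, 18.5 and 23.5 CPM in cKO mice, with 4.06 CPM in AI03 well below the rest, and stood just inside the threshold (log2 fold change 0.97, SE 0.28, adjusted p = 0.0497). Trex1 was listed at 0 in every library, and whether its reads were lost to an overlapping gene was not checked. Without AI56, AI02, AI55 or AH74, Stat3 was the 1 pathway gene called higher, whereas Ifngr1, Irf8 and Tlr7 were lower without any 1 of the 6 mice.

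A further list held 65 other interferon-stimulated genes, of which 63 were tested. Of these, 13 rose, as 3.88% of all genes tested did, and 5 fell, as 3.79% did. Values were above 0 in 44, with a median log2 fold change of 0.16. The 10 with the smallest adjusted p were Slfn5 (0.87), Mndal (0.54), Herc6 (0.61), Irgm2 (0.60), Ube2l6 (0.49), Trim21 (0.42), Parp12 (0.42) and Epsti1 (0.40), all higher, and Lap3 (-0.56) and Ly6e (-0.37), both lower, in log2 fold change. Slfn5, of the Schlafen family of interferon-induced growth regulators, had 50.4, 43.8 and 39.2 CPM in Ctrl and 84.6, 84.4 and 73.9 CPM in cKO mice (log2 fold change 0.87, SE 0.10, adjusted p = 5.4e-05), with the smallest adjusted p of the list. These 10 genes were also called without any 1 of the 6 mice, whereas the count of genes that rose went from 13 to 8 without AI55, and the count of those that fell from 5 to 2 without AI54 or AI55 and to 3 without AI56, AI02 or AH74. Mndal overlaps Ifi203 in the table, another gene of the list that rose. Ube2l6 encodes the enzyme that loads ISG15, and Herc6 the ligase that attaches it in mice, whereas Isg15 itself did not pass the test. Ly6a, which encodes the Sca-1 of the gate and is inducible by interferon, had a value of -0.23 (adjusted p = 0.33), and Kit one of -0.04 (adjusted p = 0.84).

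Markers of cell types within and outside the gate differed between the groups as well. For the counts of markers below, the shares over all genes tested were 3.88% higher and 3.79% lower. Of 10 marker genes of long-term stem cells, 7 rose, and their summed level was 303 to 340 CPM in Ctrl and 397 to 458 CPM in cKO mice. Of 9 marker genes of lymphoid-primed progenitors, 3 fell, with sums of 1056 to 1620 CPM in Ctrl and 732 to 863 CPM in cKO mice. Neutrophil genes fell in 6 of 7 tested, from sums of 2793 to 3389 CPM to 451 to 736 CPM, and monocyte and macrophage genes in 6 of 10, from 308 to 372 CPM to 146 to 207 CPM. Of the erythroid markers 3 of 6 tested fell (115 to 159 CPM and 38.0 to 46.9 CPM), of the megakaryocyte markers 1 of 5 (112 to 141 CPM and 89.2 to 116 CPM), and of the T and NK cell markers 1 of 4 (49.7 to 63.9 CPM and 29.6 to 38.5 CPM). The T and NK cell marker that fell, Nkg7, made up most of that sum in every mouse, as Mpo did of the neutrophil sum. The T cell markers Cd3e, Cd3d and Cd8a had at most 3 counts in every library. Sums without Nkg7 or Mpo were not made.

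Plasmacytoid dendritic cells are the main source of type I interferon, and of their 6 tested markers edgeR called 0, 2 had an unadjusted p under 0.05, and DESeq2 called 0. Of these 6, 5 had values below 0 (median -0.23), and the 2 with an unadjusted p under 0.05, Ccr9 (-1.56) and Lair1 (-0.35), were among them. The list summed to 159 to 193 CPM in Ctrl and 157 to 170.3 CPM in cKO mice, most of it from Tcf4. Without Tcf4 the sums were 29.5, 31.7 and 25.1 CPM in Ctrl and 22.4, 21.9 and 22.4 CPM in cKO mice. Every cKO mouse was lower there, but most of this remainder came from Lair1. Lair1 had 20.9, 20.9 and 20.7 CPM in Ctrl and 18.1, 15.1 and 15.9 CPM in cKO mice. No sum without both genes was made. B cell markers summed to 17.6 to 21.6 CPM and 17.5 to 21.7 CPM, with 1 of 3 tested lower. Endothelial and stromal markers summed to 16.0 to 20.7 CPM and 15.2 to 19.4 CPM, with 1 of 5 tested higher and 2 lower. Klk1 and Vpreb3 were the 2 markers of these lists at 0 in every library. The study states, without showing the data, that the make-up of the LSK gate was largely alike in both groups at this time. It also measured Klf1, Mpo and Ighm by PCR in sorted subsets of the gate and found them lower in cKO mice. The part of these cell types in the values of the interferon-stimulated genes was not tested here.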

How the data were processed

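RNA-seq libraries (SMARTer Stranded Total RNA-seq Pico kit) of LSK cells of 3 Ctrl and 3 cKO mice were analyzed. Per the labels and the file header, the authors demultiplexed reads with bcl2fastq 2.17.1.14, aligned them to mm10 with GSNAP and deposited raw counts per gene from featureCounts 1.5.0 on Ensembl gene models, strand-specific and with a minimum mapping quality of 1, so that reads shared by near-identical genes are missing. The table held 45706 genes, of which 98.8% had a symbol by identifier in GENCODE M21, and totals of 13003573 to 21277519 counts per library. Each column was matched to its mouse by name, and no column was left unmatched.

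From these counts, edgeR 4.0.16 in R 4.3.3 was run on all 6 libraries with TMM normalization (factors 0.945 to 1.03), filterByExpr (15184 genes), and the quasi-likelihood test of genotype without covariates. Adjustment followed Benjamini and Hochberg over all genes, with a threshold of 0.05. SE was derived from the fitted log2 fold change and its F statistic (absolute change over the root of F). Within library series, log2 CPM with a prior count of 2 were compared. TPM used the deposited exon lengths. The common biological coefficient of variation was 0.106. On simulated data for this comparison, 96.5% of 200 changed genes were recovered among 14986 genes. Recovery at fold changes as small as those of the 39 genes was not tested separately. An exact permutation test of 3 against 3 cannot give a two-sided p below 0.1, so no such test was used.

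The 39 genes and all lists were chosen with earlier results of these data known. Named with the value in every mouse were the genes past the threshold and, for each role, the one with the highest mean TPM, all other members by their fold change, and of the pathway and further lists the genes past the threshold, at most the 10 with the smallest adjusted p. A few genes beyond this rule were picked with their values in view. Some items are left unreported. Of the 65 further genes, Ifi3b was not matched and Slfn1 did not pass the filter. Alternatives were DESeq2 1.42.0 as test or for size factors, no filter, a minimum of 10 counts in each library, removal of mitochondrial genes and genes above 1% of counts, library series as a covariate, each mouse left out in turn and, added after the data had been seen, removal of the trend against length (loess, span 0.3).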

Additional observations from a re-analysis of the deposited data

How the results depend on the processing

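The median log2 fold change of the 39 genes stayed between 0.20 and 0.31 with each mouse left out in turn, and no called value changed sign in any setting. The count of genes called higher, 12, became 21 with no filter on low counts and ranged from 4 to 15 with a mouse left out, with 4 without cKO mouse AI55 and 5 without Ctrl mouse AI56. DESeq2 called 16 higher. The count called lower, 1, became 2 with the library series as a covariate and 2 with no filter, by the addition of Ifit3, and ranged from 1 to 2 with a mouse left out. Pathway genes called higher, 3, ranged from 1 to 4 with a mouse left out. The further interferon-stimulated genes called higher, 13, became 20 with no filter and ranged from 8 to 14 with a mouse left out, and those called lower, 5, ranged from 2 to 4. With a mouse left out, 604 to 1125 of all genes were called, beside 1164 with 6 mice. Why these counts changed was not tested. Without a mouse, fewer samples enter the fit. Of the values of the 39 genes in the 13 tested settings, 433 kept their direction and their side of the threshold, 32 newly passed it, 27 no longer did, and 15 changed sign. Of values with no test (within a library series, or TPM in place of CPM), 14 moved by more than the spread between mice. The sign changes fell on 6 genes, none of them past the threshold in either fit. Oas2 was at -0.019 with the length trend removed, at -0.015 with the series as a covariate, and between -0.065 and 0.074 with a mouse left out. Mx1 was at -0.019 with the series as a covariate and between -0.11 and 0.23 with a mouse left out. Usp18 was at -0.0094 with the length trend removed and between -0.052 and 0.094 with a mouse left out. With a mouse left out, Trim25 lay between -0.070 and 0.012, Ifitm1 between -0.026 and 0.37, and Ifi35 between -0.0077 and 0.062. No paired analysis was possible because the sources used here do not say which mice were of 1 litter, and the replicate numbers follow accession order. With 3 mice a group and an SE near 0.09 on the log2 scale for the 39 genes, a change as small as that of Irf1 could not be told from 0.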

Other observations

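Among the further interferon-stimulated genes, relatives were not alike. These genes were picked with their values in view and the differences between them were not tested. Of the Schlafen genes, which lie together on chromosome 11, Slfn5 and Slfn8 rose, with log2 fold changes of 0.87 and 0.42 (adjusted p = 5.4e-05 and 0.0080 with edgeR), while Slfn2 had -0.30 (adjusted p = 0.27). Of the HIN-200 genes on chromosome 1, whose products bind DNA, Mndal and Ifi203 rose by fitted values of 0.54 and 0.44 (adjusted p = 0.0013 and 0.0065), Ifi204 had -0.08 (adjusted p = 0.86), and Ifi205, at 1.61, 3.48 and 2.05 CPM in Ctrl and 1.07, 0.635 and 0.351 CPM in cKO mice, fell (log2 fold change -1.80, adjusted p = 0.028). The call for Ifi205 rests on 5 to 73 counts a library and was lost with AI54, AI56, AI55 or AH74 left out (adjusted p up to 0.15).

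Of 5 listed genes of class I antigen presentation, edgeR called 0, 1 had an unadjusted p under 0.05, and DESeq2 called 1. This was Tap1, the peptide transporter, at -0.19 on the log2 scale (adjusted p = 0.072 with edgeR, lower with DESeq2). The immunoproteasome subunits Psmb8 and Psmb9 were at -0.06 and -0.10 (adjusted p = 0.67 and 0.50), and B2m and Nlrc5 at 0.04 and 0.04 (adjusted p = 0.79 and 0.80). The chemokine gene Ccl5 fell (log2 fold change -0.96, adjusted p = 0.031), with 8.72, 8.44 and 4.80 CPM in Ctrl and 4.02, 3.24 and 4.00 CPM in cKO mice. It was called without AI56 but lost its call with any other mouse left out (adjusted p up to 0.13). Of the other chemokine genes, Cxcl9 was at -0.87, without overlap of the groups (adjusted p = 0.18), and Cxcl10 at 0.35 (adjusted p = 0.40).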
